A study of Mus musculus with 16 samples.

Results

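The 8 genes described here either carry ions across the plasma membrane when a cell shrinks or swells, or encode kinases that act on those carriers. They were taken by gene symbol and are 8 of the 55367 genes listed for every library. The carriers are Slc12a2 (NKCC1), Slc12a4 (KCC1), Slc12a7 (KCC4) and Slc4a2 (AE2). The kinases are Wnk1, Wnk4, Stk39 (SPAK) and Oxsr1 (OSR1).

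The libraries came from mIMCD3 cells, a mouse inner medullary collecting duct line, and numbered 16, with 2 in each of 8 groups. WT cells were held for 5 h in DMSO, the vehicle, or in 10 µM SFN (sulforaphane, an electrophile that activates the transcription factor Nrf2). They were then kept isosmotic or moved to hyperosmotic medium for 1 h or 6 h; the design text gives 600 mOsm and names the 1 h exposure. Nrf2-/- cells all received SFN and were isosmotic or hyperosmotic for 1 h, so each comparison with WT is between SFN-treated cells and no Nrf2-/- DMSO library was analysed here. The Nrf2-/- line was made by lentiviral CRISPR/Cas9 and antibiotic selection, and the sources do not say whether it descends from 1 cell. A library extraction label names primary TEC where every other label names mIMCD3. The study describes its RNA-seq samples as biological replicates, and the labels do not say what was kept separate between them, so p-values measure the spread between these libraries.

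A hypertonic medium draws water out of a cell, and the cell regains volume by taking up salt. NKCC1 brings sodium, potassium and chloride in, and AE2 exchanges bicarbonate for chloride and, beside a Na/H exchanger, also loads salt. KCC1 and KCC4 let potassium and chloride out and serve the reverse response to swelling. WNK kinases respond to chloride and shrinkage and phosphorylate SPAK and OSR1, which in turn activate NKCC1 and inhibit the KCC carriers. These switches are phosphorylations, which RNA-seq does not measure, and the values here are transcript levels only. The inner medulla is the most concentrated region of the kidney, and its collecting duct cells meet wide swings in osmolality.

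Total counts ran from 34484296 to 50774875 a library. The targeted gene Nfe2l2, which encodes Nrf2, lay between 64 and 149 CPM (counts scaled to library size, with TMM factors) in the 12 WT libraries and between 11 and 11.6 CPM in the 4 Nrf2-/- libraries. Akr1b3, the aldose reductase that makes sorbitol, averaged 360 CPM in isosmotic DMSO cells and 5610 CPM after 6 h, and Nqo1, a standard Nrf2 target, averaged 2.7 CPM with DMSO and 7.28 CPM with SFN in isosmotic WT cells. Of 16 collecting duct and renal epithelial markers, 11 reached 1 CPM in every library, whereas Aqp2, Aqp3, Avpr2 and Cldn8 stayed under 1 CPM throughout. No marker of 10 for other nephron segments and 1 of 9 for non-epithelial cells (Cd68) reached 1 CPM in every library. The Nrf2-/- 1 h libraries stood apart from each other, with a biological coefficient of variation of 0.348 against 0.0395 to 0.128 in the other 7 pairs. Transcripts of 8 kb or more had a median log2 difference of 0.47 between these 2 libraries (replicate 2 minus replicate 1), against -0.02 for the rest. All 16 libraries share 1 estimate of spread per gene in the test, so this pair also widens the error of comparisons it is not part of.

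**Figure D1:**
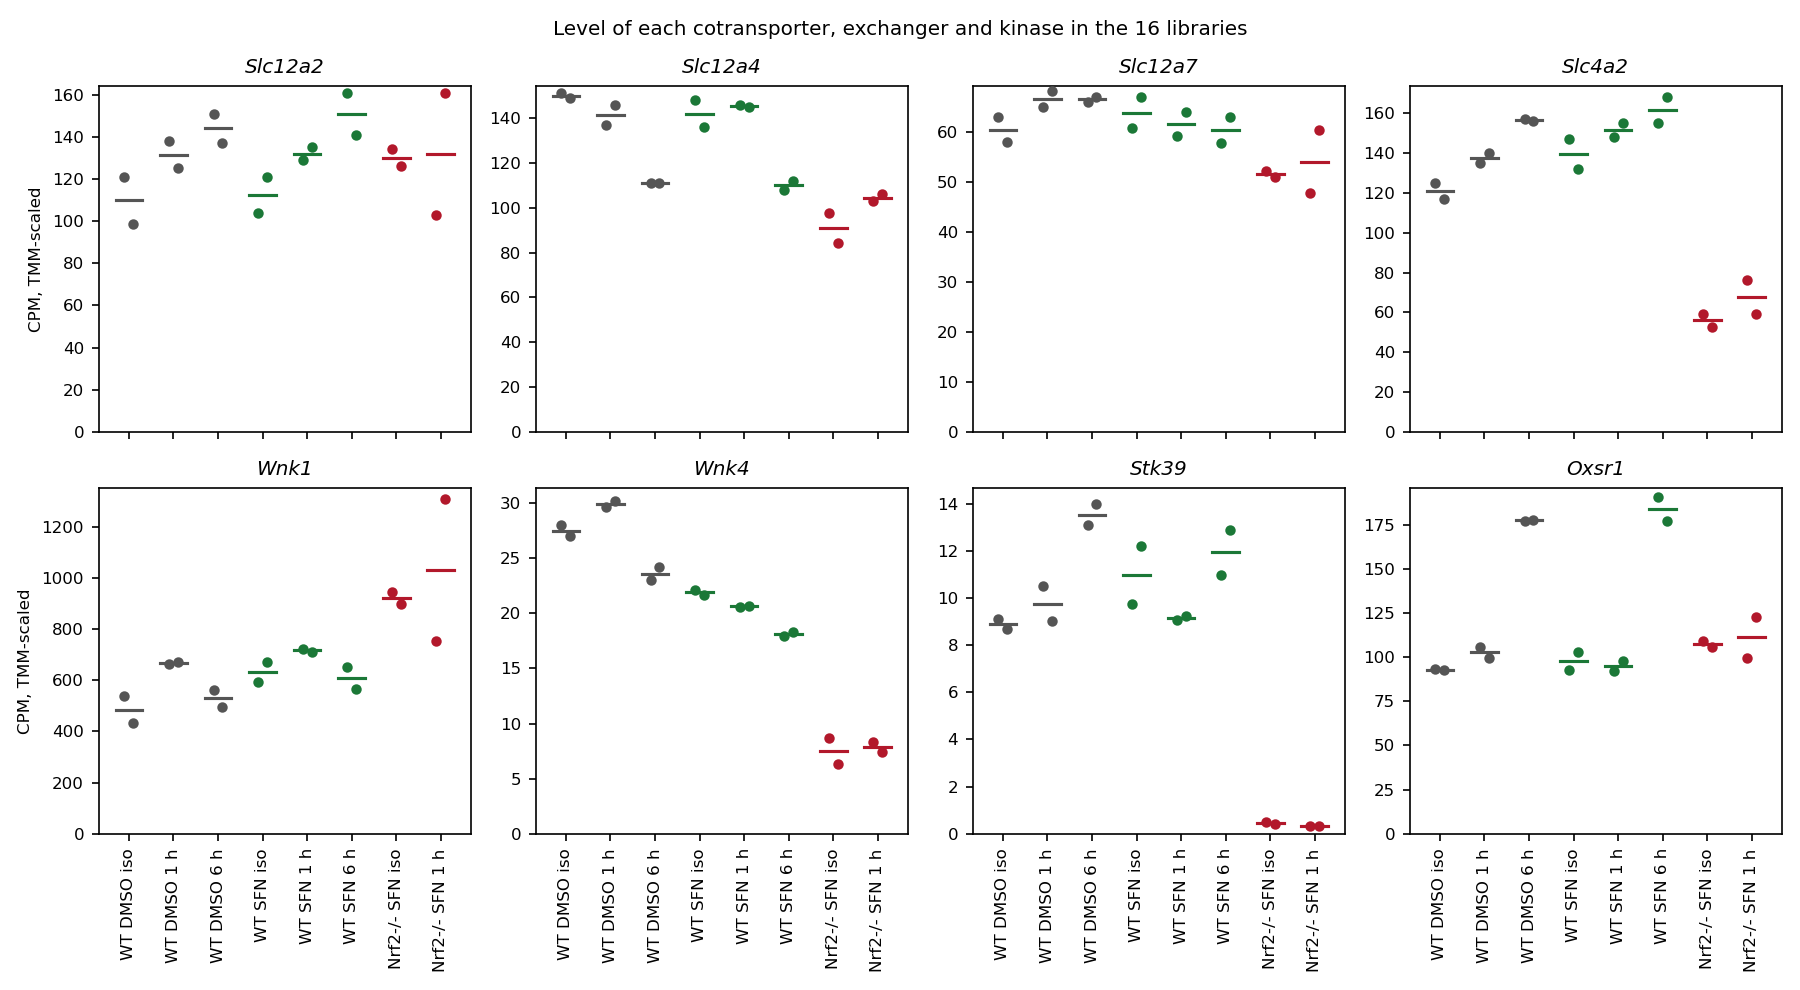
Level of each of the 8 genes in every library, in TMM-scaled CPM on axes that start at 0 and differ between panels. Points are the 2 libraries of a group and bars their mean, with WT DMSO grey, WT SFN green and Nrf2-/- SFN red; Oxsr1 is near 180 CPM at 6 h and Stk39 is under 0.5 CPM in all 4 Nrf2-/- libraries.

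Levels are compared between genes only after division by length. In isosmotic DMSO cells, per kb of annotated exon, Slc12a4 stood highest at 35.1 ± 0.311 CPM per kb (SD, n = 2). Wnk1 followed at 21.3 ± 3.3, Oxsr1 at 17.4 ± 0.115 and Slc4a2 at 14.5 ± 0.7. Slc12a2 was at 10 ± 1.4, Wnk4 at 6.63 ± 0.178, Slc12a7 at 4.78 ± 0.279 and Stk39 lowest at 1.8 ± 0.0557 CPM per kb. No neighbours in this order overlapped between libraries. Division by the longest transcript instead put Wnk1 (42.8 CPM per kb) above Slc12a4 (39.4) and Slc12a7 (8.66) above Wnk4 (6.68), so these orders depend on which length is used. Of the paired genes, KCC1 was thus the more abundant KCC transcript and Oxsr1 the more abundant SPAK/OSR1 kinase transcript on both lengths.

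After 6 h of hyperosmotic medium, Oxsr1 rose 1.91-fold with DMSO and 1.88-fold with SFN, and Slc12a4 fell to 0.737 and 0.776 of its isosmotic level. In DMSO cells 4 of the 8 genes passed edgeR's quasi-likelihood test at a Benjamini-Hochberg adjusted p under 0.05 (Oxsr1, Stk39 and Slc4a2 higher, Slc12a4 lower), where 45.9% of the 19509 genes tested passed. With SFN, 3 passed (Oxsr1 and Slc12a2 higher, Slc12a4 lower), where 47.6% of all genes did. Both shares are near the background, so the count itself says nothing particular about these genes. Their median log2 fold change was 0.26 with DMSO and 0.03 with SFN, beside 0.048 and 0.085 over all genes tested. No test of whether the 6 h effect differed between SFN and DMSO passed for any of the 8, where 0.759% of genes passed. In bulk RNA, fewer cells expressing a gene and less RNA per cell cannot be told apart. Marker lists also moved at 6 h. The summed level of the 10 markers of other nephron segments was 6.41 to 8.05 CPM in isosmotic DMSO cells and 27.9 to 30.1 CPM at 6 h, and that of the 9 non-epithelial markers 5.79 to 6.01 and 18.6 to 20.7 CPM. With SFN the sums were 7.99 to 8.62 and 25.9 to 30.8 CPM, and 6.3 to 7.93 and 18.8 to 19.5 CPM. Of the tested markers on these lists, 4 of 4 for other segments and 6 of 8 non-epithelial ones were called higher at 6 h with DMSO. Aqp1 averaged 0.925 and then 15.3 CPM, Lrp2 6.22 and 11.7, Ptprc 0.114 and 4.88, and Pecam1 0.0442 and 3.31. Umod, Slc12a1, Foxi1, Cdh5 and Dcn stayed under 1 CPM in every library. The collecting duct and renal epithelial sum moved in the same direction, from 3410 to 3810 CPM to 5730 to 5810 CPM with DMSO. The part of these markers in the 6 h values was not tested.

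Between 1 h and 6 h, 3 of the 8 passed in DMSO cells (Oxsr1, Stk39 and Slc12a4; background 42.4%) and 2 in SFN cells (Oxsr1 and Slc12a4; background 42.6%). After 1 h itself none passed against isosmotic cells, whether in DMSO (background 11.2%), SFN (9.52%) or Nrf2-/- SFN cells (7.17%). Only Wnk1 in DMSO cells, of the 8 genes in 3 such comparisons, had an interval that excluded 0 together with libraries that did not overlap, at an unadjusted p of 0.0277. Whether the 1 h effect differed between SFN and DMSO passed for none of the 8 (background 0.559%). In a fit of the 12 WT libraries alone, 3 genes passed edgeR's quasi-likelihood test at 1 h in DMSO cells. They were Wnk1 (adjusted p = 0.00343), Slc12a2 (0.0493) and Slc4a2 (0.0399). Over all genes 4334 passed in that fit, against 2186 with all libraries, so the background of 11.2% does not apply to it. With the trend in transcript length removed, a separate setting, none of these 3 genes passed the same test. The log2 values were then 0.17 for Wnk1 (adjusted p = 0.221), 0.11 for Slc12a2 (0.588) and 0.15 for Slc4a2 (0.487).

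**Figure D2:**
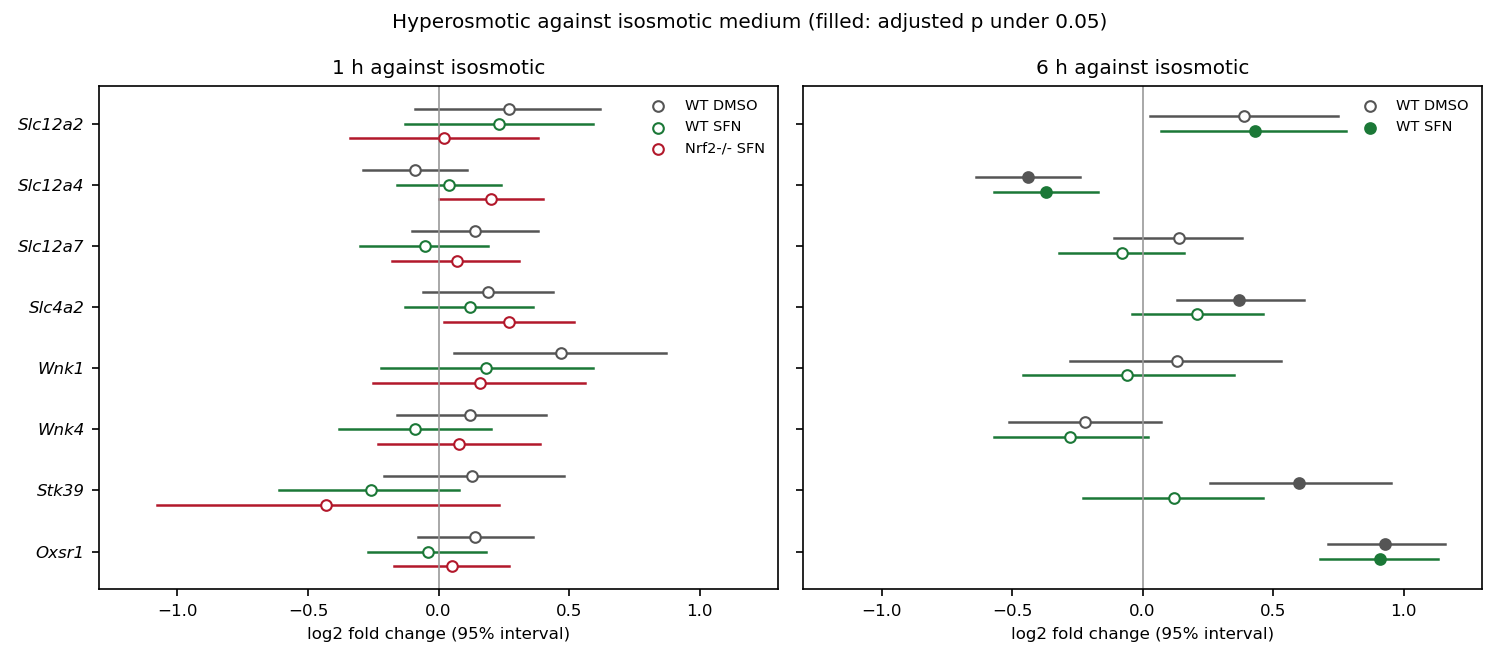
Log2 fold change of each gene after 1 h (left) and 6 h (right) in hyperosmotic medium against isosmotic cells of the same pretreatment and genotype, with 95% intervals from the edgeR fit. Filled points passed an adjusted p of 0.05: none at 1 h, and at 6 h Oxsr1 and Slc12a4 with both pretreatments, Stk39 and Slc4a2 with DMSO only and Slc12a2 with SFN only; no difference between pretreatments passed its own test.

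SFN in WT cells moved none of the 8 past the threshold in isosmotic medium (background 2.84%), at 1 h (0.0923%) or at 6 h (0.041%). At an unadjusted p under 0.05, 1 gene passed in each of the 3 comparisons, and it was Wnk4 each time. Over all genes 15.4%, 3.43% and 3.68% did so, and 1 of 8 in isosmotic medium is below that share. There Wnk1 (log2 0.38) and Slc4a2 (0.21) read higher with SFN, and neither was called. In an edgeR quasi-likelihood fit of the 12 WT libraries alone, 3 of the 8 passed in isosmotic medium, where 2875 genes passed in all. They were Wnk1 (0.40, adjusted p = 0.0153), Slc4a2 (0.23, adjusted p = 0.0351) and Wnk4 (-0.31, adjusted p = 0.0274).

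Nrf2-/- cells gave the widest differences among these 8 genes. In isosmotic medium 5 of 8 passed against WT (background 34.1%): Stk39, Wnk4, Slc4a2 and Slc12a4 were lower and Wnk1 was higher. The same 5 passed in the same directions at 1 h (background 31.5%). The median over the 8 was -0.47 on the log2 scale in isosmotic cells and -0.33 at 1 h, beside -0.001 and -0.022 over all genes. None of the 8 showed a 1 h response that differed between genotypes (background 0.123%). Both of these comparisons set 1 line against another, so the genotype and any other difference between the lines cannot be told apart. Of the collecting duct and renal epithelial markers 14 were tested between isosmotic Nrf2-/- and WT cells, and 4 were higher and 4 lower. Cdh16 averaged 200 CPM in WT and 20.5 CPM in Nrf2-/- cells, Pax2 142 and 26.9 CPM, and Epcam 48.8 and 284 CPM. The part of such differences in the values of the 8 genes was not tested.

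**Figure D3:**
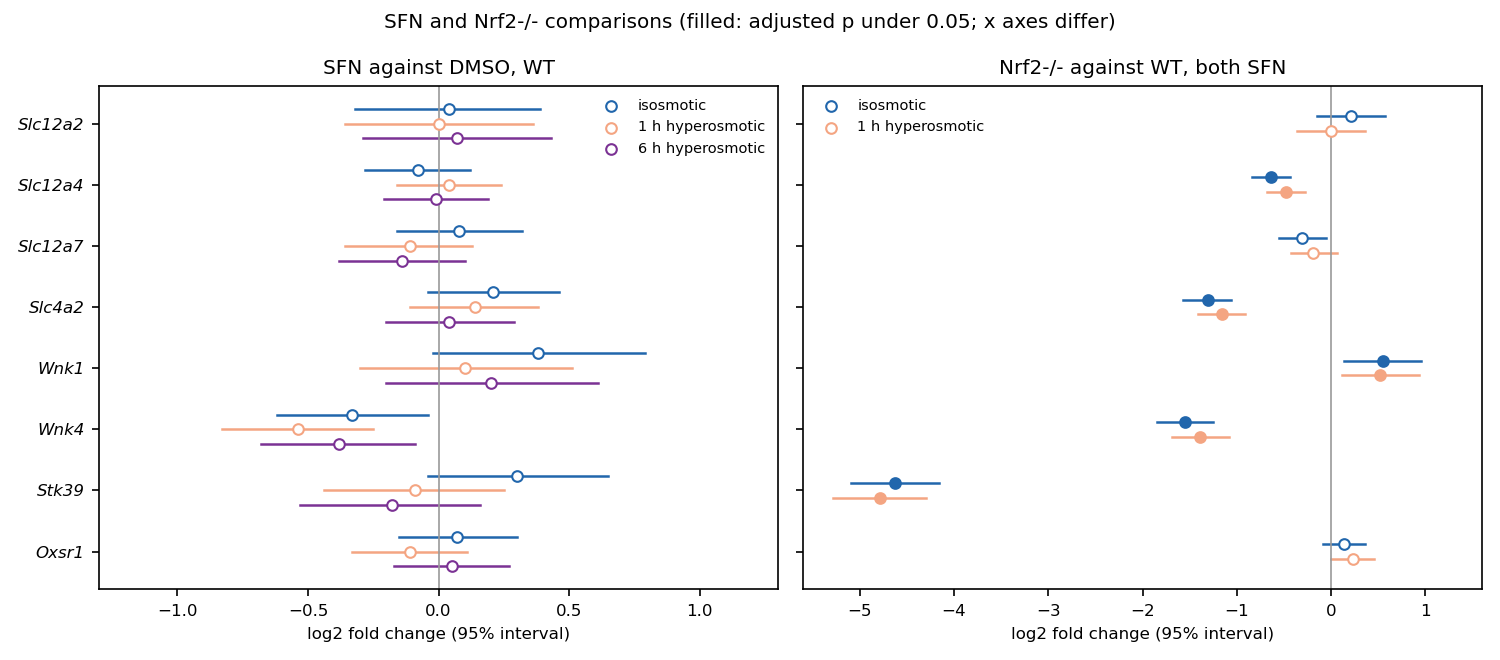
Log2 fold change of each gene for SFN against DMSO in WT cells (left) and for Nrf2-/- against WT cells, both with SFN (right), with 95% intervals; the x axes differ. Filled points passed an adjusted p of 0.05: none for SFN, although all 3 Wnk4 intervals lie below 0, and for Nrf2-/- Stk39, Wnk4, Slc4a2, Slc12a4 and Wnk1 in both media.

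Slc12a2 encodes NKCC1, the uptake carrier. Its 2 isosmotic DMSO libraries read 121 and 98.8 CPM, the 1 h libraries 138 and 125, and the 6 h libraries 151 and 137. With SFN they read 104 and 121 in isosmotic medium, 129 and 135 at 1 h, and 161 and 141 at 6 h. Each hyperosmotic pair thus lay above its isosmotic pair. The 6 h log2 fold change was 0.39 (SE 0.17, adjusted p = 0.0688 in edgeR's quasi-likelihood test) with DMSO and 0.43 (SE 0.17, adjusted p = 0.0492) with SFN. This call is marginal: leaving out any of 14 of the 16 libraries lost it, with adjusted p between 0.0559 and 0.272, the highest without SFN isosmotic replicate 1. In a fit of the 12 WT libraries both changes passed, at adjusted p of 0.00178 and 0.00121. In Nrf2-/- cells Slc12a2 read 134 and 126 CPM in isosmotic medium and 103 and 161 CPM at 1 h. The last pair spans nearly the whole range of this gene over all libraries, and its log2 difference from WT at 1 h was -0.00 with an interval from -0.36 to 0.36. Without Nrf2-/- 1 h replicate 1 the difference was 0.30 (adjusted p = 0.0351) and without replicate 2 it was -0.36 (adjusted p = 0.0218), so these libraries do not settle a direction.

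Slc12a4 encodes KCC1, an efflux carrier, and it was lower at 6 h. Isosmotic DMSO libraries read 151 and 149 CPM, 1 h libraries 137 and 146, and both 6 h libraries 111. With SFN the values were 148 and 136 in isosmotic medium, 146 and 145 at 1 h, and 108 and 112 at 6 h. All 4 libraries at 6 h were below the other 8 WT libraries. The fall was 0.737-fold with DMSO (log2 -0.44, SE 0.09, adjusted p = 0.00141) and 0.776-fold with SFN (log2 -0.37, SE 0.09, adjusted p = 0.00487). Without SFN isosmotic replicate 1 the second value was -0.32 with an adjusted p of 0.0509. From 1 h to 6 h the log2 fold change was -0.35 with DMSO (adjusted p = 0.00687) and -0.40 with SFN (adjusted p = 0.00277); the first was -0.31 with an adjusted p of 0.0727 without DMSO 1 h replicate 2. Nrf2-/- cells read 97.8 and 84.1 CPM in isosmotic medium and 103 and 106 CPM at 1 h, below all WT isosmotic and 1 h libraries. The log2 differences from WT were -0.64 (SE 0.09, adjusted p = 8.99e-05) and -0.48 (SE 0.09, adjusted p = 0.00118). The second had an adjusted p of 0.109 when only the 4 libraries compared were fitted. Slc12a4 shares 361 bases of exon with the antisense gene Gm16156, which had at most 21 counts in a library where Slc12a4 had at least 3130.

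The 250 bases upstream of the RefSeq start of Slc12a4 (GRCm38.p6, chr8:105966116-105966365, minus strand), shown because the gene fell with both pretreatments, are:
Slc12a4: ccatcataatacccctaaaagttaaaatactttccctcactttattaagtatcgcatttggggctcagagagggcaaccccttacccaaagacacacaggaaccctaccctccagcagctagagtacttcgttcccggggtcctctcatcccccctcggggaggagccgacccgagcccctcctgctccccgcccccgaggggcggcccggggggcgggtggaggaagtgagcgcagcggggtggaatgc

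Slc12a7, the other KCC carrier, read between 57.8 and 68.2 CPM in the 12 WT libraries. No comparison passed. The 6 h log2 fold change was 0.14 (interval -0.11 to 0.38) with DMSO and -0.08 (interval -0.32 to 0.16) with SFN, so a fall as large as that of Slc12a4 with DMSO lies outside both intervals. Isosmotic Nrf2-/- libraries read 52.3 and 51 CPM against 60.8 and 67 CPM in WT, a log2 difference of -0.31 (SE 0.11) that missed the threshold with an adjusted p of 0.0506. It passed in 5 of 24 alternatives, among them without both Nrf2-/- 1 h libraries (-0.29, adjusted p = 0.00503) and with the trend in transcript length removed (-0.43, adjusted p = 0.00103). At 1 h the difference was -0.19 (SE 0.11, adjusted p = 0.24), and -0.34 with that trend removed (adjusted p = 0.00638, edgeR's quasi-likelihood test). With libraries left out 1 at a time the 1 h value ran from -0.37 to -0.02.

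Set within a library, the ratio of Slc12a2 to Slc12a4 per kb of exon was 0.313 and 0.26 in isosmotic DMSO cells and 0.536 and 0.484 at 6 h. With SFN it was 0.276 and 0.35 in isosmotic medium and 0.584 and 0.495 at 6 h. All 4 ratios at 6 h lay above all 8 of the other WT libraries, which reached 0.396. The ratio was 0.538 and 0.587 in isosmotic Nrf2-/- cells, within the range of WT cells at 6 h or just above it. At 1 h the Nrf2-/- libraries gave 0.391 and 0.596, the first of which lies within the range of WT isosmotic and 1 h libraries.

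Slc4a2 encodes the anion exchanger AE2. Its isosmotic DMSO libraries read 125 and 117 CPM, the 1 h libraries 135 and 140 and the 6 h libraries 157 and 156. With SFN they read 147 and 132, then 148 and 155, then 155 and 168. The order from isosmotic to 6 h was the same with both pretreatments, without overlap between a 6 h pair and its isosmotic pair. At 6 h the log2 fold change was 0.37 with DMSO (SE 0.12, adjusted p = 0.0164) and 0.21 with SFN (SE 0.12, adjusted p = 0.157). The first was lost without DMSO isosmotic replicate 2 (0.32, adjusted p = 0.126), DMSO 6 h replicate 1 (0.36, adjusted p = 0.0819) or DMSO 6 h replicate 2 (0.37, adjusted p = 0.0705). The second passed in a fit of the 12 WT libraries, with an adjusted p of 0.012.

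In Nrf2-/- cells Slc4a2 read 59.4 and 52.9 CPM in isosmotic medium and 76.3 and 59.1 CPM at 1 h. Every one of these values was below every WT library. The level was 2.49-fold lower than in WT in isosmotic medium (log2 -1.31, SE 0.12, adjusted p = 7.57e-07) and 2.23-fold lower at 1 h (log2 -1.16, SE 0.12, adjusted p = 3.08e-06). Slc4a2 (chr5:24423837-24440950 in GRCm38, plus strand) shares 1141 bases of exon with Fastk on the opposite strand, and the sources do not say whether counting used strand. Fastk had 968 to 4119 counts a library against 1970 to 7138 for Slc4a2. It moved against Slc4a2 at 6 h, with log2 fold changes of -1.12 (adjusted p = 3.36e-05) with DMSO and -1.40 (adjusted p = 4.19e-06) with SFN. In Nrf2-/- cells it moved with Slc4a2, at -0.71 (adjusted p = 0.00184) in isosmotic medium and -0.55 (adjusted p = 0.0116) at 1 h. The part of shared reads in the Slc4a2 values was not tested.

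Wnk1 encodes the widely expressed WNK kinase. Its isosmotic DMSO libraries read 538 and 432 CPM, the 1 h libraries 666 and 673, and the 6 h libraries 562 and 497. With SFN they read 593 and 673, then 723 and 713, then 651 and 566. With both pretreatments the 1 h pair was the highest, without overlap. The 1 h log2 fold change was 0.47 with DMSO (SE 0.19, adjusted p = 0.146) and 0.18 with SFN (SE 0.19, adjusted p = 0.685), and neither passed. From 1 h to 6 h it was -0.34 with DMSO (adjusted p = 0.17), which passed in the fit of the 12 WT libraries (-0.33, adjusted p = 0.0114).

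Isosmotic Nrf2-/- libraries read 947 and 901 CPM of Wnk1, above all WT libraries, and the 1 h libraries read 754 and 1310. The log2 difference from WT was 0.55 in isosmotic medium (SE 0.19, adjusted p = 0.038) and 0.52 at 1 h (SE 0.19, adjusted p = 0.048). Both calls sit at the threshold. Leaving out any of 10 libraries lost the first, with adjusted p of 0.0508 to 0.22, and any of 15 lost the second, with adjusted p of 0.0517 to 0.716; the value at 1 h was 0.07 without Nrf2-/- 1 h replicate 2. With only the 4 libraries compared in the fit, adjusted p was 6.33e-05 in isosmotic medium and 0.324 at 1 h. The longest Wnk1 transcript is 11.33 kb, and the 835 genes with a transcript of 8 kb or more had a median log2 difference of 0.24 in isosmotic medium and 0.25 at 1 h, beside -0.02 and -0.04 for the others. The same genes had a median of 0.26 at 1 h in DMSO cells, where Wnk1 was at 0.47. With the trend in transcript length removed, the Wnk1 differences between genotypes were 0.29 (adjusted p = 0.00893) and 0.25 (adjusted p = 0.0257), and its 1 h value with DMSO was 0.17 (adjusted p = 0.221).

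Wnk4 encodes a WNK kinase best known from the distal nephron, where its mutation causes familial hypertension with high potassium. It had tight pairs. DMSO libraries read 28 and 27 CPM in isosmotic medium, 29.7 and 30.2 at 1 h, and 23 and 24.2 at 6 h. SFN libraries read 22.1 and 21.7, 20.6 and 20.7, and 17.9 and 18.3 CPM. Every SFN library was below every DMSO library, at all 3 times. The SFN log2 difference was -0.33 (SE 0.13, interval -0.62 to -0.04) in isosmotic medium, -0.54 (SE 0.14, interval -0.83 to -0.25) at 1 h and -0.38 (SE 0.14, interval -0.68 to -0.09) at 6 h. Adjusted over all genes, p was 0.249, 0.511 and 1 in edgeR's quasi-likelihood test, so none passed. The 1 h difference passed in DESeq2 (-0.54, adjusted p = 0.0134), in the fit of the 12 WT libraries (-0.54, adjusted p = 0.00522) and without either of the Nrf2-/- 1 h libraries (adjusted p of 0.0211 and 0.022). The isosmotic difference passed only among the WT libraries (-0.31, adjusted p = 0.0274), and the 6 h difference in no fit that was run. A joint test of any difference among the 6 WT groups passed for Wnk4 (adjusted p = 0.00269), as it did for Oxsr1 (7.29e-07), Slc12a4 (0.00132) and Stk39 (0.026), where 56.3% of genes passed.

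From 1 h to 6 h the Wnk4 log2 fold change was -0.34 with DMSO (SE 0.14, adjusted p = 0.053) and -0.19 with SFN (SE 0.14, adjusted p = 0.291). The DMSO value was -0.34 with an adjusted p of 0.00417 in the fit of the 12 WT libraries. Against isosmotic cells the 6 h values were -0.22 (adjusted p = 0.2) and -0.28 (adjusted p = 0.112). The 6 h pairs were thus the lowest of each pretreatment, by amounts that the fit of all 16 libraries did not call.

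In Nrf2-/- cells Wnk4 read 8.68 and 6.29 CPM in isosmotic medium and 8.33 and 7.44 CPM at 1 h. The lowest WT library was at 17.9. The level was 2.93-fold below WT in isosmotic medium (log2 -1.55, SE 0.14, adjusted p = 8.78e-07) and 2.62-fold below at 1 h (log2 -1.39, SE 0.14, adjusted p = 3.17e-06). In WT cells SFN values were thus on the same side of DMSO values as Nrf2-/- values were of WT values, both being lower. Wnk4 shares 306 bases of exon with the antisense gene Gm11615, which had 3 to 17 counts a library where Wnk4 had 234 to 1312.

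Sequence around the start is shown for Wnk4 and Stk39 because these are the genes lowest in Nrf2-/- cells relative to WT, of the 8. Capitals mark TGGAAA, the core of the tonicity element bound by NFAT5, the only match to it or to its reverse complement TTTCCA in each window. The letters TGACNNNGC, or their reverse complement GCNNNGTCA, the core of the antioxidant response element bound by Nrf2, were in neither. The Wnk4 line covers the 250 bases before its start (GRCm38.p6, chr11:101260317-101260566, plus strand), and the Stk39 line 30 bases of the window before its RefSeq start (chr2:68472191-68472220, minus strand). GENCODE places the end of the Stk39 gene at 68472268, so by that annotation these bases lie within the gene:
Wnk4: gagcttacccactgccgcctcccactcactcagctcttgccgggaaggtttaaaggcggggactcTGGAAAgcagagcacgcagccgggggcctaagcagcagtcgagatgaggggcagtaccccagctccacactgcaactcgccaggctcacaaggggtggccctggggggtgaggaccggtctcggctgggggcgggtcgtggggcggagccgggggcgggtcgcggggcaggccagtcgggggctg
Stk39: gctcccagcgcgTGGAAActtccctggcgg
RefSeq gave 9 such windows for 7 of the 8 genes, with none for Slc12a2. The tonicity element core was in 2 of the 9, beside 18.6% of the 32851 windows of all genes, and the antioxidant response element core was in 0 of 9 beside 10.2%. These motifs do not overlap in letters, and a missing match says only that the letters are not in these 250 bases.

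Stk39 encodes SPAK, which carries the WNK signal to the cotransporters. Counts were 382 and 394 in isosmotic DMSO cells, 465 and 340 at 1 h and 451 and 454 at 6 h. With SFN they were 364 and 658 in isosmotic medium, 348 and 370 at 1 h and 374 and 413 at 6 h. In Nrf2-/- cells the counts were 17 and 15 in isosmotic medium and 12 and 11 at 1 h. Scaled to CPM, WT libraries lay between 8.71 and 14 and Nrf2-/- libraries between 0.317 and 0.484. Stk39 was thus 24.7-fold lower than WT in isosmotic medium (log2 -4.63, SE 0.22, adjusted p = 7.97e-10) and 27.6-fold lower at 1 h (log2 -4.79, SE 0.23, adjusted p = 1.16e-09). No other of the 8 genes differed as much between any groups, and the call held in every alternative run. Within Nrf2-/- cells both 1 h libraries were below both isosmotic libraries, and the log2 difference of -0.43 (interval -1.08 to 0.23, adjusted p = 0.593) on 11 to 17 counts a library did not pass.

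Stk39 spans 261.8 kb (GRCm38, chr2:68210445-68472268, minus strand). Its protein-coding neighbours within 500 kb, chosen after the values were seen, were B3galt1, Cers6 and a pair of genes with no counts. Genes of other types were not read. B3galt1 lies 87.8 kb away and had 36 to 55 counts in Nrf2-/- libraries and 7 to 85 in WT (log2 difference 0.36, SE 0.44, adjusted p = 0.58). Cers6, 389 kb away, was higher in Nrf2-/- cells (0.98, SE 0.16, adjusted p = 2.66e-04). The loss of Stk39 transcript was thus not shared by either protein-coding neighbour that had counts. Whether it belongs to Nrf2 or to the line was not tested.

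In WT cells Stk39 rose at 6 h with DMSO, to 13.1 and 14 CPM from 9.1 and 8.71 (log2 0.60, SE 0.16, adjusted p = 0.0068). Without DMSO isosmotic replicate 2 the adjusted p was 0.0583, and without DMSO 6 h replicate 2 it was 0.056. With SFN the 6 h libraries read 11 and 12.9 CPM and the isosmotic libraries 9.76 and 12.2, which overlap (log2 0.12, interval -0.23 to 0.46). From 1 h to 6 h the value was 0.47 with DMSO (adjusted p = 0.0291) and 0.38 with SFN (adjusted p = 0.0735). The DMSO call was lost without any of 6 libraries, with adjusted p up to 0.227 without DMSO 1 h replicate 2.

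Oxsr1 encodes OSR1, the close relative of SPAK that WNK kinases also phosphorylate. Isosmotic DMSO libraries read 93.4 and 92.5 CPM, 1 h libraries 106 and 99.5, and 6 h libraries 177 and 178. With SFN they read 92.8 and 103, then 92 and 97.9, then 191 and 177. The 4 libraries at 6 h stood clear of the other 12 libraries, which reached 123 CPM. The 6 h rise was 1.91-fold with DMSO (log2 0.93, SE 0.11, adjusted p = 5.80e-06) and 1.88-fold with SFN (log2 0.91, SE 0.10, adjusted p = 6.88e-06), and it held in every alternative run. Nearly all of it lay between 1 h and 6 h, at 0.79 with DMSO (adjusted p = 2.65e-05) and 0.95 with SFN (adjusted p = 4.95e-06), beside 0.14 and -0.04 in the 1st hour. The difference between pretreatments in the 6 h effect was -0.03, with an interval from -0.34 to 0.29.

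Nrf2-/- libraries read 109 and 106 CPM of Oxsr1 in isosmotic medium and 99.8 and 123 CPM at 1 h. The log2 differences from WT were 0.14 (interval -0.09 to 0.36) and 0.23 (interval 0.00 to 0.45, adjusted p = 0.116). Thus while Stk39 was nearly absent, the estimates for Oxsr1 were 1.1-fold of WT in isosmotic medium and 1.17-fold at 1 h. Both Nrf2-/- libraries were above both WT libraries in each medium. With libraries left out 1 at a time the 1 h log2 difference ran from 0.07 to 0.38, the highest without Nrf2-/- 1 h replicate 1. Per kb of exon, the ratio of Oxsr1 to Stk39 was 7.81 to 16.1 in WT libraries and 208 to 358 in Nrf2-/- libraries. The span of the gene Slc22a14 overlaps that of Oxsr1, but the genes share no exon bases.

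The window upstream of Oxsr1, shown because the gene had the largest rise of the 8 at 6 h, holds neither motif (GRCm38.p6, chr9:119322428-119322677, minus strand):
Oxsr1: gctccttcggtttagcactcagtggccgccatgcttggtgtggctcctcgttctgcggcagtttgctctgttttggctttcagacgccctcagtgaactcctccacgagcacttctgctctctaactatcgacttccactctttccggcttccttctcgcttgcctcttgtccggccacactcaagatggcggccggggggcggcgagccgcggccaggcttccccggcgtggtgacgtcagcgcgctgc

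**Figure D4:**
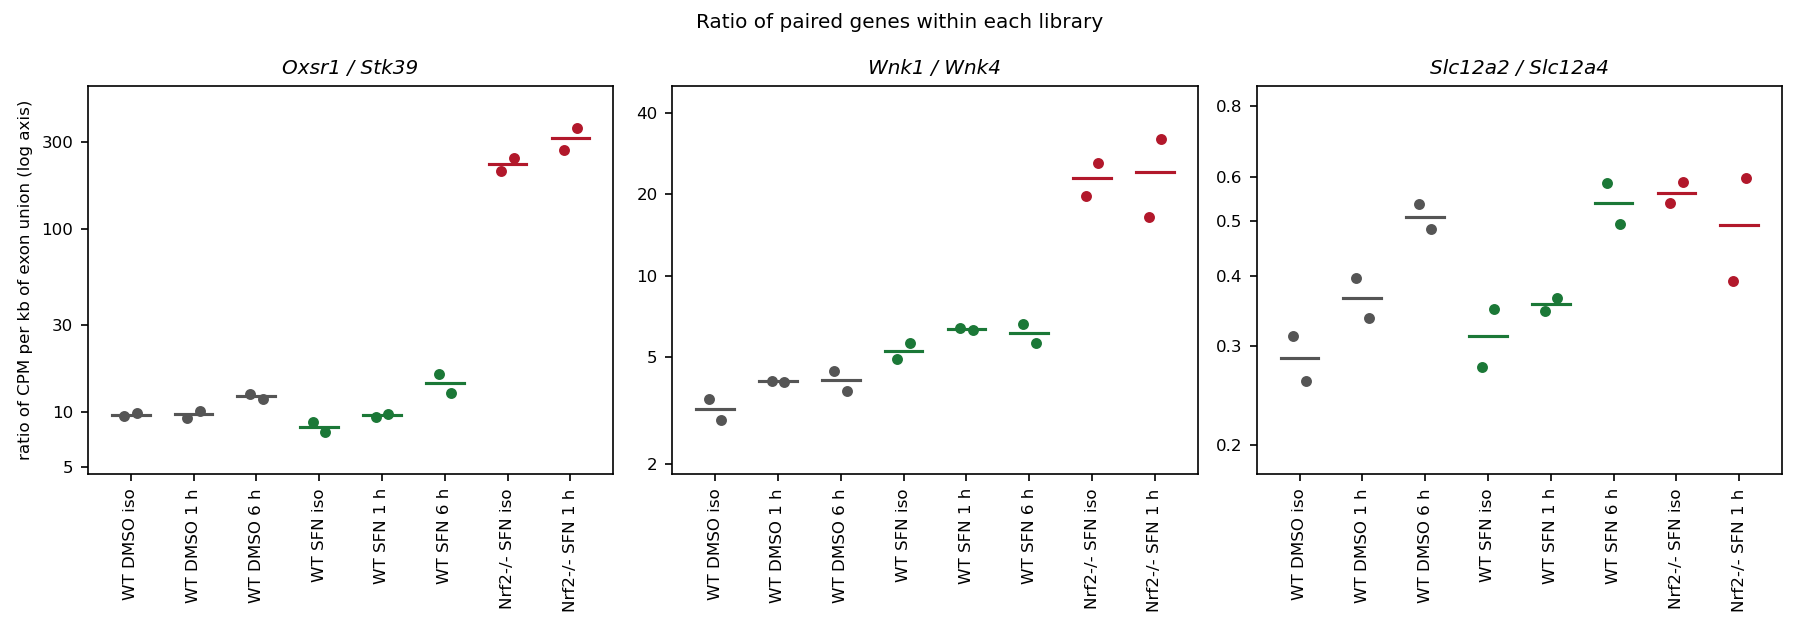
Ratio of paired genes within each library, from CPM per kb of exon union, on log axes that differ between panels; points are libraries and bars group means. Oxsr1 to Stk39 is 7.81 to 16.1 in WT and 208 to 358 in Nrf2-/- libraries, Wnk1 to Wnk4 is 2.91 to 6.62 in WT and 16.5 to 32 in Nrf2-/- libraries, and Slc12a2 to Slc12a4 is higher at 6 h than at the other WT times.

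The ratio of Wnk1 to Wnk4 was not tested, and neither gene passed for SFN in the fit of all 16 libraries. It was 2.91 to 4.44 in DMSO libraries, 4.89 to 6.62 in SFN libraries and 16.5 to 32 in Nrf2-/- libraries. These 3 sets did not overlap. Both ends of the last range are the Nrf2-/- 1 h pair, and isosmotic Nrf2-/- libraries gave 19.8 and 26.1. With the trend in transcript length removed, the isosmotic Wnk1 log2 difference was 0.18 for SFN, from 0.38. For Nrf2-/- against WT it was 0.29, from 0.55.

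Other genes of the response were read from lists of cotransporters, exchangers, kinases and channels. Of 5 other cation-chloride cotransporters tested, 1 was higher and 2 were lower at 6 h with DMSO, and 2 were higher and 2 lower with SFN. Over all genes 45.9% and 47.6% passed in either direction at 6 h, against which this and the following list counts at 6 h are to be read. Slc12a9 was lower at 6 h, with log2 fold changes of -0.50 with DMSO (adjusted p = 0.0102) and -0.83 with SFN (adjusted p = 2.43e-04). The higher genes, Slc12a3 (NCC) and Slc12a5 (KCC2), were at 2.06 CPM or less in these libraries.

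Of 8 Na/H exchangers and partners tested, 1 was higher and 1 lower at 6 h with DMSO, and 1 was higher and 3 lower with SFN. Slc9a8, an organelle exchanger, fell from 54.6 and 55.2 CPM to 20.7 and 18.9 with DMSO (log2 -1.47, adjusted p = 1.74e-07) and by -1.27 with SFN (adjusted p = 5.93e-07). Of 10 other bicarbonate and anion exchangers tested, 4 were higher and 1 lower with DMSO, and 3 were higher and 2 lower with SFN. Of those called higher with DMSO, Slc4a11 had the highest level, rising from 24 and 22.9 CPM to 51.7 and 48.9 with DMSO (log2 1.10, adjusted p = 3.63e-06).

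Of 15 other WNK pathway kinases and regulators, 6 were higher and 1 lower at 6 h with DMSO, and 5 were higher and 1 lower with SFN, close to or below the 45.9% and 47.6% of all genes. Sgk1, a kinase that raises sodium transport and acts on the WNK pathway, had the largest rise in level: 37.2 and 38 CPM in isosmotic DMSO cells, 71.3 and 59.7 at 1 h, and 681 and 682 at 6 h (log2 4.18, adjusted p = 1.38e-08). It already passed at 1 h (log2 0.80, adjusted p = 0.027). Wnk2 had no counts in isosmotic DMSO cells and read 3.59 and 3.52 CPM at 6 h. Klhl2 and Cul3, parts of a ubiquitin ligase that removes WNK kinases, rose by 0.31 (adjusted p = 0.0378) and 0.49 (adjusted p = 0.0117). Of 5 LRRC8 subunits of the volume-regulated anion channel, 2 were lower at 6 h with DMSO and 3 with SFN, and Lrrc8e fell most, from 18.8 and 18.2 CPM to 2.9 and 5.87 with DMSO (log2 -2.08, adjusted p = 7.87e-06). Lrrc8a, the subunit that every such channel needs, fell at 1 h with DMSO (log2 -1.20, adjusted p = 0.00627). This fall was not called at 1 h with SFN or in Nrf2-/- cells. No LRRC8 subunit passed the test of a 1 h effect that differed between SFN and DMSO or between genotypes, so no such difference is shown. From 1 h to 6 h Lrrc8a was called higher with both pretreatments, and at 6 h it was not called against isosmotic cells with either.

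In Nrf2-/- cells, isosmotic with SFN, 5 of the 15 WNK pathway genes were higher and 3 lower than in WT, where 34.1% of all genes passed in either direction. Cab39 (MO25), the scaffold that activates SPAK and OSR1, read 209 and 211 CPM against 140 and 153 CPM (log2 0.52, adjusted p = 0.00634). Among LRRC8 subunits 2 of 5 were higher and none lower. Lrrc8c read 128 and 141 CPM against 42.1 and 51.5 (log2 1.53, adjusted p = 4.30e-05). Of Na/H exchangers 1 was higher and 4 were lower, of other anion exchangers 3 were higher and 2 lower, and of other cation-chloride cotransporters none was higher and 1 lower. Slc4a7, a sodium bicarbonate cotransporter of the Slc4a2 family, read 192 and 197 CPM against 77.7 and 98.1 (log2 1.15, adjusted p = 3.46e-04), opposite in direction to Slc4a2. The lists had members in both directions, except LRRC8 and the cotransporters, and their medians on the log2 scale were 0.15 for WNK pathway genes, 0.51 for LRRC8, -0.55 for Na/H exchangers and -0.03 for both other anion exchangers and other cation-chloride cotransporters, beside -0.001 over all genes.

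The genes whose 8 group means were most like those of Oxsr1, Slc12a4, Wnk4 and Stk39, by Pearson r of log2 CPM over groups, are given as a description, since with 8 means that share 2 genotypes many genes reach such values. For Oxsr1 they were Efr3b (0.998), Foxa1 (0.997) and Amd2 (0.995), and Foxa1 averaged 14.3 CPM in isosmotic DMSO cells and 63.6 at 6 h. For Slc12a4 they were Gm11993 (0.995), Babam1 (0.995) and Gm17018 (0.993). Wnk4 was followed by Sytl2 (0.996), Rras (0.991) and Aldh4a1 (0.990), and Stk39 by Aldh2 (0.999), Foxd1 (0.999) and Snx7 (0.998). Foxd1 averaged 84.3 CPM in isosmotic WT SFN cells and 1.89 CPM in isosmotic Nrf2-/- SFN cells. Among the 8 genes, Stk39 was most like Slc4a2 (r = 0.98) and Wnk4 (r = 0.93) over the 8 group means, and all 3 genes are low in both Nrf2-/- groups.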

How the data were processed

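The deposited files hold gene counts made by the authors, one file for each of the 16 libraries, with 55367 genes listed. A few lines that named no gene, 2 in one WT file and 3 in one Nrf2-/- file, were left out. The submitters' processing notes name Bowtie2, SAMtools, featureCounts and mm10, and the study's methods name Hisat2 in place of Bowtie2; versions, annotation and strand setting are not given in the sources used here. Counts from 1 to 10 were even in 58.0% to 68.5% of cases by library, and whether both reads of a pair were counted is not given in the sources used here; the precision of a value is therefore taken from libraries, not from its count. The members and gene lists were chosen with earlier results of these data known, and every member is described whatever it did; genes of the lists are named where they passed the test or serve as reference genes.

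Genes were filtered with filterByExpr (19509 kept) and fitted in edgeR 4.0.16 (R 4.3.3) with TMM scaling, 8 group coefficients and a robust quasi-likelihood fit over all 16 libraries; p-values of the quasi-likelihood F-test were Benjamini-Hochberg adjusted over all genes tested, and an adjusted p under 0.05 was a call. SE is the log2 fold change divided by the root of F, with 95% intervals from the fit's degrees of freedom. Levels are CPM on TMM-scaled library sizes, and SD is over the 2 libraries. The script was tested on simulated counts. Alternatives were DESeq2 1.42.0, size factors by RLE, no low-count filter, a minimum of 10 counts per library, smaller sets of libraries, a replicate block and each library left out; removal of a length trend (19048 genes with a GENCODE length, 97.6%) was added after the data were seen. Gene positions and exon overlaps are from GENCODE M21 and upstream sequences from RefSeq, both GRCm38. Genes alike were the 3 with the highest Pearson r of group means of log2 CPM, among tested genes averaging at least 1 CPM, for the 4 members with the lowest adjusted p in the joint test of WT groups. Some genes of the lists are not reported here by name.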

Additional observations from a re-analysis of the deposited data

Results flagged for a closer look

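Wnk4 after 1 h moved in opposite directions with the 2 pretreatments: both DMSO libraries were above their isosmotic pair (log2 0.12) and both SFN libraries below theirs (log2 -0.09). The test of the difference gave -0.21 (SE 0.19, adjusted p = 0.867 in edgeR's quasi-likelihood test), and neither 1 h effect passed.

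Stk39 moved in opposite directions with SFN in isosmotic and 6 h cells: both SFN libraries were above both DMSO libraries in isosmotic medium (log2 0.30) and below both at 6 h (log2 -0.18). The difference was -0.49 (SE 0.23, unadjusted p = 0.0499, adjusted p = 0.567 in edgeR's quasi-likelihood test).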

How the results depend on the processing

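Of 2944 log2 fold changes of members under alternatives, 2714 kept their direction and their side of the threshold, 58 lost a call, 88 gained one and 84 changed sign, in 37 comparisons of a gene. None of the 37 was called with all libraries, and their largest size there was 0.21. A call came with 2 of the sign changes, both of Slc12a2, in Nrf2-/- against WT at 1 h without Nrf2-/- 1 h replicate 1 (0.30) and at 1 h in Nrf2-/- cells without replicate 2 (-0.34). The values follow, after that of all libraries in brackets, and a range is over libraries left out 1 at a time. At 1 h with DMSO, Slc12a7 (0.14) gave -0.04 without the length trend. At 6 h with DMSO, Slc12a7 (0.14) gave -0.02 without the length trend and Wnk1 (0.13) gave -0.03 to 0.29, -0.20 without the length trend. At 1 h with SFN, Slc12a4 (0.04) gave -0.02 to 0.10, Slc12a7 (-0.05) gave -0.12 to 0.02 and Oxsr1 (-0.04) gave -0.12 to 0.03. At 6 h with SFN, Slc12a7 (-0.08) gave 0.05 with the minimum of 10, Wnk1 (-0.06) gave -0.17 to 0.03, 0.01 in DESeq2, 0.02 with RLE, 0.08 with the minimum of 10 and Stk39 (0.12) gave -0.05 to 0.28. From 1 h to 6 h with DMSO, Slc12a7 (-0.00) gave -0.04 to 0.03, 0.05 in DESeq2 and with RLE, 0.08 with the minimum of 10, 0.02 with the compared libraries and without the length trend, 0.00 with the WT libraries. From 1 h to 6 h with SFN, Slc12a7 (-0.03) gave -0.10 to 0.03, 0.03 in DESeq2 and with RLE, 0.07 with the minimum of 10, 0.00 with the compared libraries. For SFN in isosmotic medium, Slc12a2 (0.04) gave -0.10 to 0.19, -0.09 without the length trend, Slc12a7 (0.08) gave -0.06 without the length trend and Oxsr1 (0.07) gave -0.00 to 0.15. For SFN at 1 h, Slc12a2 (0.00) gave -0.07 to 0.07, -0.00 in DESeq2 and with RLE and with the compared libraries and with the WT libraries, -0.01 with the minimum of 10, Slc12a4 (0.04) gave -0.01 to 0.09 and Stk39 (-0.09) gave -0.20 to 0.02. For SFN at 6 h, Slc12a2 (0.07) gave -0.03 to 0.15, Slc12a4 (-0.01) gave -0.04 to 0.01, 0.00 with the minimum of 10, Slc4a2 (0.04) gave -0.02 to 0.10 and Oxsr1 (0.05) gave -0.01 to 0.10. For Nrf2-/- against WT at 1 h, Slc12a2 (-0.00) gave -0.36 to 0.30, 0.05 in DESeq2 and with RLE, 0.01 with the minimum of 10, 0.00 with the compared libraries. At 1 h in Nrf2-/- cells, Slc12a2 (0.02) gave -0.34 to 0.30, -0.06 without the length trend, Slc12a7 (0.07) gave -0.11 to 0.22, Wnk1 (0.16) gave -0.29 to 0.50, Wnk4 (0.08) gave -0.14 to 0.32 and Oxsr1 (0.05) gave -0.11 to 0.18, -0.00 without the length trend. For the SFN difference in the 1 h effect, Slc12a2 (-0.04) gave -0.19 to 0.10, 0.10 without the length trend and Slc4a2 (-0.07) gave -0.15 to 0.00. For the SFN difference in the 6 h effect, Slc12a2 (0.03) gave -0.12 to 0.16 and Oxsr1 (-0.03) gave -0.10 to 0.05, 0.01 without the length trend. For the genotype difference in the 1 h effect, Slc12a2 (-0.21) gave -0.57 to 0.08, Slc12a7 (0.12) gave -0.06 to 0.28, Slc4a2 (0.15) gave -0.04 to 0.33, Wnk1 (-0.02) gave -0.47 to 0.32, Wnk4 (0.16) gave -0.05 to 0.41 and Oxsr1 (0.09) gave -0.06 to 0.23.

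The number of members called moved by over 1.5 times as follows. At 1 h with DMSO (0 called) it was 1 with no filter, 1 with only the compared libraries, 3 with the 12 WT libraries and 2 without both Nrf2-/- 1 h libraries. At 6 h with SFN (3) it was 5 with the WT libraries and 5 without both Nrf2-/- 1 h libraries. For 6 h against 1 h it was 7, 6 and 5 with the compared libraries, the WT libraries and without both Nrf2-/- 1 h libraries with DMSO (3), and 5 with the compared libraries and 4 with the length trend removed with SFN (2). For SFN against DMSO (0) it was 1 with no filter, 3 with the WT libraries and 1 without both Nrf2-/- 1 h libraries in isosmotic medium; at 1 h it was 1 in DESeq2, 3 with the compared libraries, 1 with the WT libraries and 1 without both Nrf2-/- 1 h libraries. For Nrf2-/- against WT at 1 h (5) it was 3 with the compared libraries. For any WT difference (4) it was 7 with the compared or WT libraries, without both Nrf2-/- 1 h libraries and with the length trend removed. The count over all genes moved the same way where it is given here. With the WT libraries it was 4334 at 1 h with DMSO (from 2186) and 2875 for SFN in isosmotic medium (from 555). With the compared libraries it was 11258 and 10832 for 6 h against 1 h with DMSO (from 8266) and SFN (from 8302). There it was also 809 for SFN at 1 h (from 18) and 1651 for Nrf2-/- against WT at 1 h (from 6154). The causes of these moves were not tested.

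Leaving out libraries 1 at a time, the members called ranged from 0 to 2 at 1 h with DMSO, 2 to 5 at 6 h with DMSO, 1 to 5 at 6 h with SFN, 1 to 5 for 6 h against 1 h with DMSO, 2 to 3 with SFN, 0 to 1 for SFN in isosmotic medium and at 1 h, 4 to 6 and 4 to 7 for Nrf2-/- against WT in isosmotic medium and at 1 h, 0 to 2 for 1 h in Nrf2-/- cells, 0 to 1 for the genotype difference in the 1 h effect and 3 to 7 for any WT difference. A lone library left in a group is assumed to vary like the others. Same-numbered libraries did not pair (correlation of deviations -0.08 to 0.12 over 28 pairs of groups, 1 above 0.1). With a replicate block 2 members were called at 6 h with SFN, where Slc12a2 was lost, and 4 in Nrf2-/- against WT at 1 h, where Wnk1 was lost; no other count of members changed. Over all genes the count called moved by over 1.5 times in many settings, from 6 to 809 for SFN at 1 h and from 7 to 5079 for 1 h in Nrf2-/- cells, the highest without Nrf2-/- 1 h replicate 1. Stk39 in Nrf2-/- cells rests on 11 to 17 counts a library.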
